A study of Mus musculus with 26 samples.

Results

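KO1 is a clone of 4T1, a line of mouse mammary tumor cells, that was cut with CRISPR/Cas9 on either side of the start of the gene for the long noncoding RNA MaTAR25. Its 3 RNA-seq libraries (genotype MaTAR25-/-, strain BALB/c) were compared with the 2 libraries of 4T1 control cells (genotype wild type, BALB/c), which makes 5 samples of the 26 in the series, and 15023 of the 45318 genes in the count table passed the filter on low counts and were tested. Both groups were grown in DMEM with serum and without any treatment, and polyadenylated RNA was sequenced. In the methods of the study, KO clones came from single sorted cells after transfection of 2 guide plasmids, and a guide against Renilla luciferase served as the negative control, while the labels call the control libraries wild type. KO1 is thus 1 clone, and MaTAR25 loss and its descent from 1 cell cannot be told apart here. A second clone, KO2, with 4 libraries, was used for the spread of the fit and for a direct comparison with KO1. No label says that the libraries of a group came from separate cultures, so the p-values measure the spread between these libraries, which may be technical.

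Long noncoding RNAs are transcripts without a protein product, and many that stay in the nucleus act on the transcription of other genes. A tumor cell line that loses one is usually read out through its cell cycle, its stress responses and its contact with matrix and neighbouring cells, and the gene lists below follow that order. Cell division runs on the E2F factors, which switch on genes for DNA synthesis once cyclins and their kinases have inactivated the retinoblastoma proteins. Shortage of amino acids or protein folding stress acts in turn through ATF4, a factor that raises amino acid transporters, tRNA synthetases and the genes of stress-induced death.

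MaTAR25, listed as 1200007C13Rik, is a minus-strand gene of chromosome 2, spanning 167827693 to 167833646 in GRCm38 and has 2 exons. The guides listed by the study are shown because they set which part of the gene the deletion can remove. Each matched 1 site in the genome next to an NGG motif, and the capitals mark that motif (the PAM), which Cas9 needs beside its target.
MaTAR25 TSS upstream gRNA1: gtggccccagggtgatgactGGG
MaTAR25 TSS upstream gRNA2: aacttcccggccttatcgtcTGG
MaTAR25 TSS upstream gRNA3: gcctgacctagtttctcaccCGG
MaTAR25 TSS downstream gRNA: aagtcagactcttggcgggcGGG
The upstream guides lie on the plus strand at chr2:167833958-167833980, chr2:167833765-167833787 and chr2:167833805-167833827, before the annotated start of the gene. Their cuts are 328, 135 and 175 bases upstream of that start. The downstream guide lies on the minus strand at chr2:167833454-167833476, and its cut falls in exon 1, 187 bases inside the transcript. Cuts by the downstream guide and 1 of the upstream guides would therefore be 515, 322 or 362 bases apart, and each pair would take 187 of the 716 bases of exon 1 and none of exon 2, which spans 167827693 to 167829431. The sources used here do not give the pair that made KO1. Reads from the rest of exon 1 and from exon 2 could still be counted in KO1.

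MaTAR25 was read at 35 and 30 counts in the control libraries and at 2, 7 and 0 counts in KO1. As CPM, counts per 1000000 counts on genes with library sizes scaled by TMM factors, these were 0.768 and 0.915 CPM in control and 0.0319, 0.232 and 0 CPM in KO1 for 1200007C13Rik. Every KO1 library was below both control libraries. The log2 fold change, KO1 over control, was -3.39 (standard error, SE, 0.98, adjusted p = 0.0341, by the quasi-likelihood test of edgeR, Benjamini-Hochberg adjusted across every gene tested). A two-sided exact permutation test of these 2 and 3 libraries gave p = 0.1, the smallest that their 10 splits allow. In edgeR fits that left out a library, the adjusted p was 0.14 without control replicate 1, 0.155 without control replicate 2 and 0.113 without KO1 replicate 1, so the call was lost, with log2 fold changes of -3.48, -3.24 and -2.89.

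Around the locus, 14 protein-coding genes were tested, of which 3 fell (21.4%) and 1 rose (7.14%), where all genes tested had 15.7% and 15.9%. Ptpn1, a tyrosine phosphatase gene at 167932057 to 167979385, had 100.3 and 103 CPM in control and 70.9, 57 and 84.6 CPM in KO1 (log2 fold change -0.52, SE 0.17, adjusted p = 0.0562). Rnf114, a ubiquitin ligase gene, had a log2 fold change of -0.51 (adjusted p = 0.0768), Pard6b, a cell polarity gene, of -0.55 (adjusted p = 0.0874), and Mocs3, needed for molybdenum cofactor synthesis, of 1.14 (adjusted p = 0.0219). The nearest factors, Snai1 and Cebpb, were not called. Snai1, a repressor of epithelial genes, was at 14.7 and 15 CPM in control and 15.3, 12.9 and 13.9 CPM in KO1, and Cebpb, a factor of mammary growth and inflammation, was at 53 and 61.5 CPM in control and 48.7, 54.5 and 41.9 CPM in KO1. Without either control library 0 of these genes were called in either direction.

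KO1 and control cells differed in a large part of the genes read. Of the 15023 genes tested, 4750 were called at an adjusted p of 0.1 (31.6%), 2390 higher (15.9%) and 2360 lower (15.7%) in KO1. The change was at least 1 on the log2 scale in 2623 of them. Every KO1 library lay on one side of both controls for 4738 called genes and, called or not, for 10052 of those tested (66.9%). Leaving out a control library lowered the count to 1482 genes (without replicate 1) and 1764 genes (without replicate 2), and the list counts below fell with it. On simulated counts with the same design, in which only 200 genes were changed, 95 genes were called, far fewer than in the data. There a log2 change of 2 was called in 69.1% of genes and one of 1 in 17.3%, and 11.6% of the calls were false. With fewer changed genes the adjusted p is harder to pass, so these shares cannot be carried over to the data.

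The libraries held 31178780 to 43155437 counts on genes in control and 30652584 to 61110585 in KO1. Reads not assigned to a gene, most of them not mapped uniquely, made up 33.9 to 34.3% of a library in control and 34.8 to 35.0% in KO1. Reads not mapped uniquely made up 24.1% in control and 25.2 to 26.1% in KO1. Those that lay in no gene made up 7.47 to 7.86% in control and 6.59 to 7.25% in KO1. The part of these differences in the results was not tested. Of the epithelial markers, Epcam was at 460.5 and 485 CPM in control and 418, 442 and 438 CPM in KO1, Cdh1 at 759 and 939.5 CPM in control and 669.6, 665 and 578 CPM in KO1, and Krt18 at 1136 and 1127 CPM in control and 543, 1233 and 1412 CPM in KO1. Of the basal markers, Krt5 had no count in the 5 libraries and Trp63 had at most 54 counts, in KO1 replicate 1. Krt14 was at 6.5 and 8.69 CPM in control and 9.94, 17.1 and 6.6 CPM in KO1. Of the mesenchymal markers, Cdh2 had no count in the 5 libraries. Vim was at 381 and 258 CPM in control and 321, 306 and 978 CPM in KO1. Among 38 markers of other cells, 12 passed the filter and 13 had no count in these libraries, the fibroblast gene Dcn among them, while the leukocyte gene Ptprc had at most 2 counts. The summed leukocyte markers were at 8.18 to 9.75 CPM in control and 14.5 to 29.4 CPM in KO1, most of the latter from Cd68 (4.19 and 3.17 CPM in control, 11.4, 28.3 and 18.3 CPM in KO1, adjusted p = 0.0958). Those of fibroblasts were at 52.5 to 53.1 and 23.6 to 47.8 CPM, those of endothelium at 0.854 to 1.30 and 0.335 to 0.514 CPM, those of adipocytes at 0.0439 to 0.0915 and 0.133 to 0.223 CPM, and those of muscle and erythroid cells at 0.0610 to 0.110 and 0.255 to 0.325 CPM.

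The largest changes were switches between a read gene and one at or near 0. Of the called genes with at least 1 CPM in one group, 21 had at most 3 counts in the 3 KO1 libraries together, 9 of them with no count at all, and 33 had at most 3 counts in the 2 control libraries together, 8 of them with no count. For a group without a count, fold changes are given as bounds against 3 counts over the group. Where the group had 1 to 3 counts, the ratio of the summed counts is given with a 95% exact interval for counting error only.

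Genes lost in KO1 included regulators of cell death, of matrix sugars and of the cytoskeleton. Dapk1, a kinase of stress-induced death, was at 41.4 and 36.4 CPM in control and had no count in KO1, at least 1684-fold lower. Sulf2, which removes sulfate groups from heparan sulfate outside the cell, was at 40.9 and 31.2 CPM in control and had no count in KO1 (at least 1561-fold lower). It lies on chromosome 2, as MaTAR25 does, from 166073089 to 166155663. B4galt6, a glycosphingolipid enzyme, went from 32.1 and 35.2 CPM to no count (at least 1458-fold lower).

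Tbcel, which takes part in tubulin folding, Cplx2, a protein of vesicle release, Mb21d2 and Chst7, a sulfotransferase of chondroitin chains, had no KO1 count either. In control, Tbcel was at 13.9 and 14.7 CPM (at least 620.1-fold lower in KO1), Cplx2 at 11.5 and 10.9 CPM (at least 486-fold), Mb21d2 at 7.55 and 6.07 CPM (at least 295-fold) and Chst7 at 3.01 and 2.47 CPM (at least 119-fold). Chn2, a GTPase-activating protein for Rac, Nkd2, an inhibitor of Wnt signalling, Ckb, brain-type creatine kinase, and Tmem121 kept 1 to 3 counts in KO1 in all. Control had 428 (95% interval 76.1 to 16958) times the level of KO1 for Chn2, 328 (95% interval 58.2 to 13029.6) for Nkd2, 191 (95% interval 64.9 to 932) for Ckb and 178 (95% interval 48.7 to 1481) for Tmem121. Tbc1d9 was at 15.1 and 16.1 CPM in control and 0.0159, 0.133 and 0.135 CPM in KO1 (log2 fold change -7.48, SE 1.49, adjusted p = 0.0084).

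Genes that appeared in KO1 included inflammatory genes and factors. Skor2, a transcriptional corepressor known from neurons, had no count in control and was at 14, 8.76 and 9.47 CPM in KO1, at least 281-fold higher. Pmp22, a membrane protein best known from myelin, Cpq, a secreted carboxypeptidase, and AA414768 had no control count either, and were at 4.05, 3.18 and 8.77 CPM, 5.9, 4.84 and 3.41 CPM and 1.91, 2.32 and 1.92 CPM in KO1 (at least 139, 123 and 53.6-fold higher). Ehf, an epithelial factor of the ETS family, had 2 counts in control and was at 10.2, 64.9 and 40.1 CPM in KO1, 1230.2 (95% interval 340.4 to 10162) times the control level.

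The inflammatory genes rose to unequal levels in the 3 KO1 libraries. Il1a, which encodes the alarm cytokine interleukin-1 alpha, was at 0.351 and 0.702 CPM in control and 32.1, 415 and 407 CPM in KO1 (log2 fold change 9.11, SE 2.26, adjusted p = 0.0192). Cxcl3, a neutrophil-attracting chemokine gene, had 1 count in control and was at 8.0, 41.9 and 53 CPM in KO1, 2246 (95% interval 403 to 88749.9) times the control level. Nos2, inducible nitric oxide synthase, was at 3.7, 32.7 and 7.11 CPM in KO1 against 2 counts in control, a ratio of 446 (95% interval 123 to 3689). KO1 replicate 1 was the lowest of the 3 for Il1a, Cxcl3, Nos2 and Ehf. Casp1, the protease that matures interleukin-1 beta, was more even, at 11.7, 16.5 and 12.4 CPM in KO1 against 3 counts in control, a ratio of 340.0 (95% interval 116 to 1650.4).

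Dock11, an activator of Cdc42 and Rac, had 0.669, 16.4 and 10.7 CPM in KO1 and 1 count in control, a ratio of 562 (95% interval 101 to 22229). Gcnt1, a glycosyltransferase of O-linked chains, had 4.19, 4.84 and 6.65 CPM and 1 control count, a ratio of 395 (95% interval 70.7 to 15629), and Pip5k1b, a kinase that makes PtdIns(4,5)P2, had 11.3, 8.36 and 7.28 CPM and 2 control counts, a ratio of 372 (95% interval 103 to 3072).

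**Figure D1:**
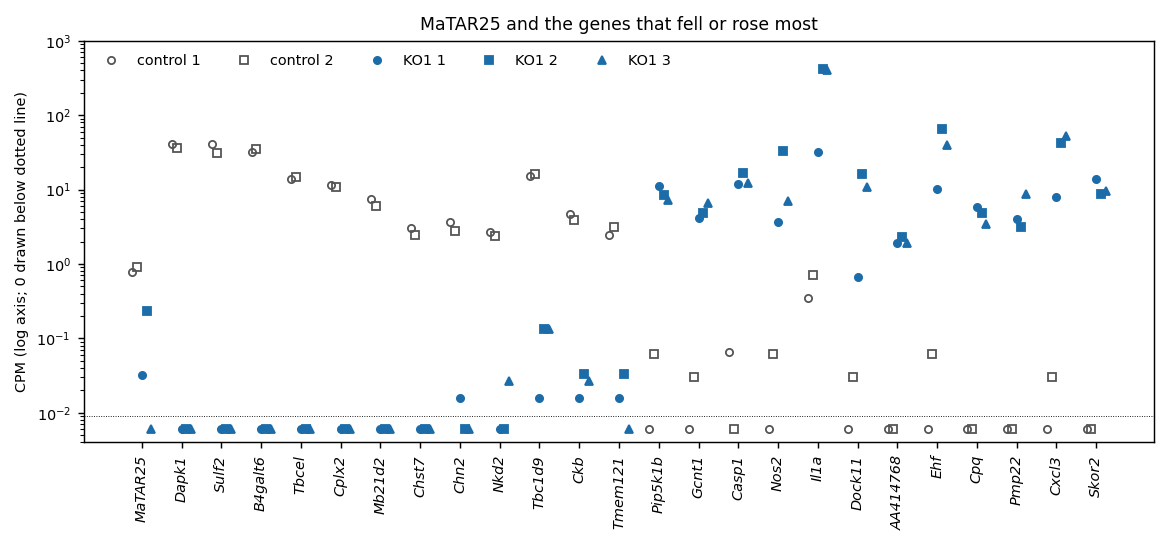
CPM on a log axis for MaTAR25 and for the 12 genes that fell and the 12 that rose most in KO1. Open gray symbols are the 2 control libraries and filled blue symbols the 3 KO1 libraries, and a library without a count is drawn below the dotted line. Of the 12 fallen genes, the 7 from Dapk1 to Chst7 have no count in any KO1 library, and Il1a, Dock11, Nos2, Ehf and Cxcl3 spread widely among the KO1 libraries.

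Among genes that averaged 100 CPM or more, Il1a rose most, followed by Cxcl5, Fgfbp1, Tns4, C3 and Cavin2. Cxcl5, another neutrophil chemokine gene, was at 4.81 and 6.96 CPM in control and 115, 764 and 541 CPM in KO1 (log2 fold change 6.33, SE 1.27, adjusted p = 0.0086). C3, the central complement component, went from 20.7 and 21.5 CPM to 107, 837 and 513 CPM (log2 fold change 4.52, SE 0.91, adjusted p = 0.0086), again with KO1 replicate 1 lowest. Fgfbp1, which releases fibroblast growth factors from matrix, was even at 289.6, 254 and 287 CPM in KO1 against 11.3 and 8.05 CPM (log2 fold change 4.83, adjusted p = 0.0086). Tns4, a tensin of focal adhesions, went from 16.9 and 18.5 CPM to 125, 392 and 831 CPM (log2 fold change 4.66, adjusted p = 0.006), and Cavin2, a coat protein of caveolae, from 8.34 and 8.39 CPM to 165, 176 and 185 CPM (log2 fold change 4.39, adjusted p = 0.0481). KO1 and control libraries were apart in each of these genes.

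The 6 abundant genes that fell most were Mt2, Atf3, Slc4a11, Clu, Txnip and Gadd45a. Mt2, a metallothionein that binds zinc and copper, was at 239 and 291 CPM in control and 12, 12.8 and 11.9 CPM in KO1 (log2 fold change -4.44, SE 1.71, adjusted p = 0.0908). Clu, the secreted chaperone clusterin, fell from 416 and 568 CPM to 49.1, 92.8 and 74.6 CPM (log2 fold change -2.77, SE 0.32, adjusted p = 0.00094). Slc4a11, a membrane transporter, went from 473 and 542 CPM to 38.1, 79 and 70.8 CPM (log2 fold change -3.02, adjusted p = 0.0178) and Txnip, a glucose-responsive inhibitor of thioredoxin, from 124 and 348 CPM to 30.7, 62.7 and 20.8 CPM (log2 fold change -2.63, adjusted p = 0.009). The 2 control libraries of Txnip differed more from each other than those of the other 5 genes. Atf3 and Gadd45a are described with the stress genes.

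Genes of DNA replication rose together in KO1. Of 58 tested, 46 were called higher and 1 lower, with a median log2 fold change of 1.39, against 15.9% called higher and a median of 0.02 over all genes tested. Without control replicate 1 or 2 the count was 33 and 34. The list level, which is the median over its members of log2(CPM + 0.5) relative to the control mean, was -0.05 and 0.05 in the control libraries and 1.19, 1.33 and 1.49 in KO1. The counts of these bulk libraries alone cannot tell more cells in S phase from more RNA of these genes in each cell. In the BrdU labelling that the study shows, KO1 had a smaller share of cells in S phase and a larger one in G2 than control. How those shares bear on the RNA levels was not tested.

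By step of replication, 11 of 16 genes of origin licensing, 12 of 14 of helicase activation and 23 of 28 of polymerases and clamp were called higher. Cdc6, which loads the helicase onto origins, was at 10.9 and 11.8 CPM in control and 72.7, 77.9 and 94.9 CPM in KO1 (log2 fold change 2.85, SE 0.24, adjusted p = 0.00058). Mcm4, a helicase subunit, was at 60.1 and 68.2 CPM in control and 242, 284 and 378 CPM in KO1 (log2 fold change 2.23, SE 0.27, adjusted p = 0.0011). The other 5 subunits of this ring, looked up after the values were seen, rose as well, by log2 fold changes from 1.41 for Mcm5 to 2.15 for Mcm6. Gins2, part of the active helicase, rose from 11.4 and 17 CPM to 56.6, 64.8 and 71.6 CPM (log2 fold change 2.18, adjusted p = 0.00096) and Dna2, a nuclease of lagging-strand synthesis, from 7.16 and 7.6 CPM to 36.3, 28.7 and 48.1 CPM (log2 fold change 2.35, adjusted p = 0.0021). The member called lower was Orc3, an origin recognition subunit, at 54.8 and 54.8 CPM in control and 41.6, 41.5 and 40.8 CPM in KO1 (log2 fold change -0.41, adjusted p = 0.0895).

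Of 26 enzymes that make DNA precursors, 20 rose and 1 fell (median 1.00), where 15.9% of all genes were called higher and 15.7% lower. Rrm2, the inducible subunit of ribonucleotide reductase, was among the 4 that rose most, at 64.7 and 76.9 CPM in control and 207, 225 and 339 CPM in KO1 (log2 fold change 1.86, SE 0.26, adjusted p = 0.0017). The gene that fell was Mthfd2, a mitochondrial one-carbon enzyme and a known ATF4 target (364 and 378 CPM in control and 232, 226 and 149 CPM in KO1, log2 fold change -0.88, adjusted p = 0.0305). Homologous recombination and Fanconi genes rose in 23 of 38 and fell in 0 (median 0.90). Palb2, the partner of BRCA2, went from 5.4 and 5.64 CPM to 22.3, 25.9 and 23.3 CPM (log2 fold change 2.11, SE 0.23, adjusted p = 0.00088), and Fanci from 8.43 and 7.63 CPM to 33.5, 37.7 and 30.8 CPM (log2 fold change 2.08, adjusted p = 0.0037).

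Genes of mitosis rose by less. Over all genes tested 15.9% were called higher and 15.7% lower. Of 100 tested, 59 were called higher and 1 lower, with a median of 0.64, and without a control library 19 and 27 were called higher. Birc5, the survivin gene of the chromosomal passenger complex, was at 74.2 and 74.5 CPM in control and 196, 206 and 235 CPM in KO1 (log2 fold change 1.52, SE 0.17, adjusted p = 0.00095). Kif20a, a motor of cytokinesis, rose by 1.62 on the log2 scale (adjusted p = 0.00088), Mybl2, a factor for late cell-cycle genes, by 1.8 (adjusted p = 0.0011) and Cenpm, a centromere protein, by 2.24 (adjusted p = 0.0053). Bora, an activator of Aurora A, was the member that fell (-0.39, adjusted p = 0.0951).

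The genes that open the cell cycle moved unevenly. Of 8 G1 cyclins and kinases, 5 rose (62.5%), where 15.9% of all genes were called higher and 15.7% lower. Ccnd1, cyclin D1, was at 536 and 355 CPM in control and 1365, 2495 and 3017 CPM in KO1 (log2 fold change 2.36, SE 0.38, adjusted p = 0.0034), and Ccne1, cyclin E1, at 4.15 and 5.22 CPM in control and 21.8, 18.8 and 26 CPM in KO1 (log2 fold change 2.25, SE 0.24, adjusted p = 0.00088). Of 10 E2F factors and partners, 3 rose (30%) and 1 fell (10%). E2f1, an activator, rose by 2.14 (adjusted p = 0.0016) and E2f8, a repressor, by 1.57 (adjusted p = 0.0034), while E2f6, another repressor, fell by 0.56 on the log2 scale (adjusted p = 0.0513). Of 8 inhibitors and pocket proteins 1 rose (12.5%) and 2 fell (25%). Those that fell were Rb1, the retinoblastoma gene, at 19 and 20.3 CPM in control and 10.3, 10.1 and 10.3 CPM in KO1 (log2 fold change -0.94, adjusted p = 0.0698), and Cdkn1b, which encodes the inhibitor p27 (-0.54, adjusted p = 0.0459).

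Many promoters of replication genes held a sequence feature that the list did not use. An E2F-type site was searched as TTTGGCGC, TTTCCCGC or TTTCGCGC on both strands in RefSeq windows (GRCm38.p6) from 250 bases before to 50 bases after a gene's start. A window held such a site for 20 of 48 replication genes with a window (41.7%), for 5 of 27 recombination genes (18.5%), for 9 of 85 mitosis genes (10.6%), for 1 of 24 genes of DNA precursors (4.17%) and for 421 of all 10504 tested genes with a window (4.01%). Of all windows of that length, 1.84% held one. Among the 421 genes with the site, 123 were called higher (29.2%) and 45 lower (10.7%), where the 10504 genes had 16.55% and 16.43%. Outside all gene lists used here, 353 genes held the site, of which 24.65% were called higher and 12.18% lower. Of the 20 replication genes with the site 17 rose, and of the 28 without it 21 rose. A match of letters is a description and not a bound site.

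The windows of Cdc6, the replication gene that rose most, and of Mcm6, the one with the most sites, are shown 5′ to 3′ in the direction of the gene with the E2F-type sites in capitals. The first run of capitals in Mcm6 holds 2 sites that overlap on opposite strands.
Cdc6 promoter, chr11:98907901-98908200, plus strand: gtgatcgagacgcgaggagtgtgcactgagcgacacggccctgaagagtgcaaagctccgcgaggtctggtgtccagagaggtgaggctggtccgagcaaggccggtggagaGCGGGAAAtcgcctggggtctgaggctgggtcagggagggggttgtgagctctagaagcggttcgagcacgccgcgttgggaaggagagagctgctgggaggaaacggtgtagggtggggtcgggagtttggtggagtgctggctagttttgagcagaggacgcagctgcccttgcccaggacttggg
Mcm6 promoter, chr1:128359656-128359955, minus strand: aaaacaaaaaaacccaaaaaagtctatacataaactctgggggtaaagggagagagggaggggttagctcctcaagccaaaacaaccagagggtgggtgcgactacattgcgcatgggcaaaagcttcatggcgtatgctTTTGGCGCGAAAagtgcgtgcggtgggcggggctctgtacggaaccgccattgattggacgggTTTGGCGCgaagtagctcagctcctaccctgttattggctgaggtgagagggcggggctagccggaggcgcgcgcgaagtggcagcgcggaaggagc

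**Figure D2:**
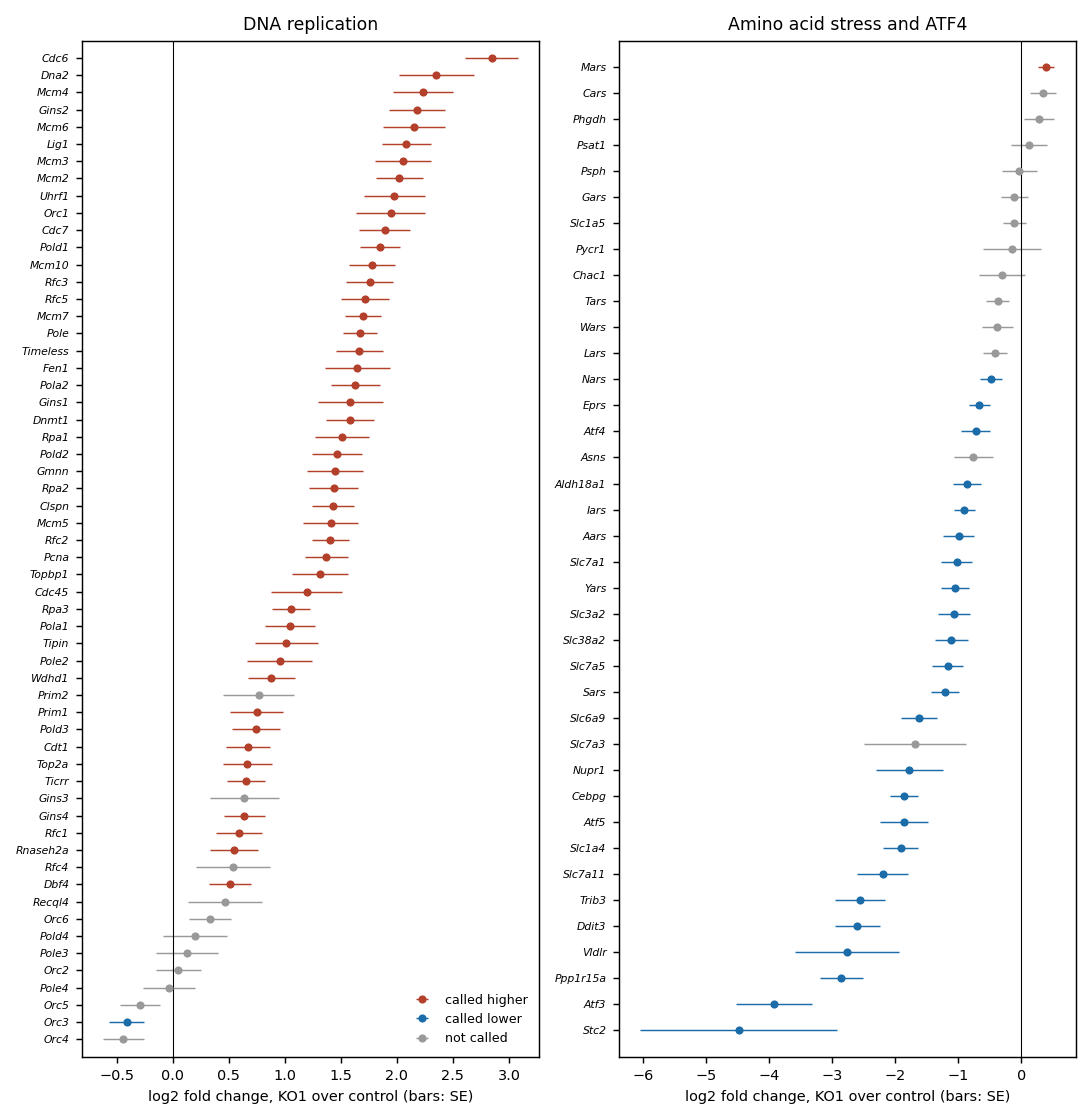
Log2 fold change of KO1 over control for each tested member of the DNA replication list (left, 58 genes) and of the amino acid stress and ATF4 list (right, 38 genes), with the standard error as a bar. Red points were called higher, blue lower and gray not called. Replication genes lie mostly above 0, up to 2.85 for Cdc6, and ATF4 genes mostly below 0, down to -4.49 for Stc2.

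Genes of the amino acid stress response fell. Of 38 tested, 24 were called lower and 1 higher, with a median log2 fold change of -1.01, against 15.7% called lower over all genes. Without control replicate 1 or 2 the count was 15 and 14. The list level was -1.01, -0.76 and -1.30 in the 3 KO1 libraries. Of 9 regulators, 8 fell. Atf3, which ATF4 induces, was at 301 and 363 CPM in control and 21.8, 28.5 and 15.5 CPM in KO1 (log2 fold change -3.92, SE 0.603, adjusted p = 0.0029). Ppp1r15a, which restores translation after stress, fell from 169 and 229 CPM to 29.8, 32.1 and 20.7 CPM (log2 fold change -2.86, SE 0.34, adjusted p = 0.001).

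Of 29 genes for amino acid synthesis, transport and tRNA charging, 16 fell and 1 rose. Stc2, a secreted glycoprotein, was at 43.6 and 27.7 CPM in control and 3.94, 0.697 and 0 CPM in KO1 (log2 fold change -4.49, SE 1.57, adjusted p = 0.0663), and Vldlr, a lipoprotein receptor, at 36.9 and 48 CPM in control and 8.19, 9.19 and 1.27 CPM in KO1 (log2 fold change -2.77, SE 0.83, adjusted p = 0.0388). Slc7a11, the cystine transporter, chosen after its values were seen, went from 182 and 218 CPM to 43.2, 67.3 and 20.2 CPM (log2 fold change -2.2, adjusted p = 0.0062). The gene that rose was Mars, methionyl-tRNA synthetase (0.39, adjusted p = 0.0562). An amino acid response element, searched as TGATGNAAT on both strands, was in a window of 5 of 30 list genes with a window (16.7%) and of 55 of the 10504 tested genes (0.524%), and 0.965% of all windows held it. Of those 55 genes 15 were called lower (27.27%) and 6 higher (10.91%), where the 10504 genes had 16.43% and 16.55%.

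The windows of Nupr1 (log2 fold change -1.78, adjusted p = 0.0397), a stress-induced chromatin protein, and Aars, alanyl-tRNA synthetase (-0.996, adjusted p = 0.0207), are shown in the same way because both genes hold the element and fell. Capitals mark the element.
Nupr1 promoter, chr7:126625421-126625720, minus strand: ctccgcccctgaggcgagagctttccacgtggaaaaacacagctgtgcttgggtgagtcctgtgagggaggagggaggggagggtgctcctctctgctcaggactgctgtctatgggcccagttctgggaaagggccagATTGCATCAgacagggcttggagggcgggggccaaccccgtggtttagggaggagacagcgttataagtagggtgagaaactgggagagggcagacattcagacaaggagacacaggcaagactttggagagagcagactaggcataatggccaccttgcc
Aars promoter, chr8:111033592-111033891, plus strand: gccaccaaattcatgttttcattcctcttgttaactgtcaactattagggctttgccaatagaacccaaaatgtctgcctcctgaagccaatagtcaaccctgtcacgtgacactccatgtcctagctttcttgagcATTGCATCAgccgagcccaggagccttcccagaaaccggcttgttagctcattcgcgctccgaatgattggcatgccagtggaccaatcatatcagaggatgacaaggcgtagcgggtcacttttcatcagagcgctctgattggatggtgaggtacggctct

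Of 32 ER chaperones and genes of the unfolded protein response, 8 rose (25%) and 6 fell (18.8%), where all genes had 15.9% and 15.7%, and the median was 0.16. Hspa5, the main ER chaperone BiP, was at 2841 and 3002 CPM in control and 1329, 1145 and 1325 CPM in KO1 (log2 fold change -1.21, SE 0.25, adjusted p = 0.0103), and Ern1, the sensor IRE1, fell by 1.42 on the log2 scale (adjusted p = 0.0045). Manf, a secreted ER stress protein, rose from 48 and 54.5 CPM to 143, 125 and 139 CPM (log2 fold change 1.41, SE 0.28, adjusted p = 0.0088). Among 24 targets of p53, 7 fell (29.2%) and 1 rose (4.17%), with a median of -0.44. Gadd45a, a growth arrest gene that ATF4 also induces, was at 184 and 238 CPM in control and 31.9, 49.6 and 24.5 CPM in KO1 (log2 fold change -2.58, SE 0.37, adjusted p = 0.0021), and Bbc3, the death activator PUMA, at 39.4 and 50.4 CPM in control and 11.2, 19.5 and 7.39 CPM in KO1 (log2 fold change -1.82, SE 0.37, adjusted p = 0.0094). Bax, another death gene, rose from 54.3 and 55.5 CPM to 105, 98.7 and 104 CPM (log2 fold change 0.898, SE 0.14, adjusted p = 0.0031). Of 14 apoptosis regulators, 3 rose (21.4%) and 4 fell (28.6%), the survival genes Bcl2l2 (-1.27, adjusted p = 0.0027) and Mcl1 (-0.87, adjusted p = 0.0094) among the latter.

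Mitochondrial, proteasome and lipid synthesis genes rose. Of 76 nuclear genes of the respiratory chain and ATP synthase, 50 were called higher and 0 lower (median 0.72), 17 and 25 of them without a control library. In the same fit 15.9% of all genes were called higher. Ndufa4, a subunit of cytochrome oxidase, was at 94.8 and 106 CPM in control and 319, 288 and 327 CPM in KO1 (log2 fold change 1.63, SE 0.21, adjusted p = 0.0014), and Atp5k, a subunit of ATP synthase, at 39.2 and 39.4 CPM in control and 166, 131 and 145 CPM in KO1 (log2 fold change 1.91, SE 0.23, adjusted p = 0.0011). Mitochondrial ribosome genes rose in 32 of 76 and fell in 2 (median 0.57), and proteasome genes rose in 23 of 48 and fell in 0 (median 0.47). Psmd13, a lid subunit of the proteasome, rose from 48.7 and 45.8 CPM to 198, 173 and 192 CPM (log2 fold change 1.99, SE 0.17, adjusted p = 0.00058). The cytosolic ribosome did not share this: 4 of 79 genes rose, 15 fell, and the median was -0.00.

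Of 7 tested genes encoded in mitochondrial DNA, 4 were called higher, such as mt-Nd1 at 1150.3 and 1010.3 CPM in control and 1846, 2164 and 2142 CPM in KO1 (log2 fold change 0.92, adjusted p = 0.0341). Replication-dependent histones, whose messages mostly lack a poly(A) tail, were low in these polyadenylated libraries. Of 9 tested 3 fell and 0 rose, and the one with most counts, Hist1h1c, was at 25 and 50.5 CPM in control and 4.64, 6.97 and 5.0 CPM in KO1. Both groups of genes also vary with RNA quality, and its part here was not tested. Over all genes tested 15.9% were called higher and 15.7% lower.

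Cholesterol and fatty acid synthesis rose in 17 of 37 genes and fell in 0 (median 0.84), where 15.9% of all genes were called higher. Fasn, fatty acid synthase, went from 356 and 284 CPM to 1417, 1330.2 and 1681 CPM (log2 fold change 2.21, SE 0.19, adjusted p = 0.00058), Ebp, a sterol isomerase, from 9.99 and 10.8 CPM to 61.1, 74.5 and 103 CPM (log2 fold change 2.93, SE 0.36, adjusted p = 0.0011), and Srebf1, the factor SREBP1, from 68.3 and 70.9 CPM to 225, 198 and 263 CPM (log2 fold change 1.72, adjusted p = 0.0038). A sterol response element, searched as TCACNCCAC on both strands, was in a window of 1 of 27 lipid list genes with a window (3.7%). Of the 10504 tested genes with a window 143 held it (1.36%), of which 20 were called higher (13.99%) and 24 lower (16.78%). All 10504 genes had 16.55% and 16.43%. Glycolysis genes and other hypoxia targets are both known to respond to HIF1. Of 20 glycolysis genes 11 rose and 0 fell (median 0.74), with Ldha, lactate dehydrogenase A, at 379 and 419 CPM in control and 1284, 1545 and 1421 CPM in KO1 (log2 fold change 1.83, SE 0.204, adjusted p = 0.00092). Of 18 other hypoxia targets 0 rose and 4 fell (22.2%, with 15.7% of all genes, median -0.19). The difference between these sets was not tested, and 2 of all 38 genes were called lower whichever control library was left out. The targets that fell included Vegfa, the main angiogenic factor, at 93.9 and 89.9 CPM in control and 11.8, 35.5 and 19.3 CPM in KO1 (log2 fold change -2.05, SE 0.48, adjusted p = 0.0158) and Ndrg1 at 415 and 468 CPM in control and 127, 164 and 81.6 CPM in KO1 (log2 fold change -1.82, SE 0.38, adjusted p = 0.0098).

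Of 34 antioxidant and glutathione genes, 13 rose (38.2%) and 2 fell (5.88%), where all genes had 15.9% and 15.7%, and the median was 0.58. Mgst1, a membrane glutathione transferase, was at 1.8 and 5.86 CPM in control and 44.9, 61.2 and 32.1 CPM in KO1 (log2 fold change 3.6, SE 0.53, adjusted p = 0.0023). The genes that fell were Nfe2l2, the factor NRF2 itself (126 and 148 CPM in control and 57.5, 74.9 and 62.6 CPM in KO1, log2 fold change -1.08, adjusted p = 0.0047), and Osgin1 (-1.26, adjusted p = 0.0417). Lysosome genes rose in 12 of 47 (25.5%) and fell in 6 (12.8%), with a median of 0.13, Gusb, beta-glucuronidase, rising most (82.1 and 73.5 CPM in control and 322, 254 and 244 CPM in KO1, log2 fold change 1.81, adjusted p = 0.001).

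Interferon-stimulated genes were higher in KO1, most of all in replicate 1. Of 46 tested, 15 were called higher and 2 lower (median 0.60), but 0 and 4 were called higher without control replicate 1 and without control replicate 2. The list level was -0.11 and 0.11 in control and 1.07, 0.48 and 0.22 in KO1 replicates 1, 2 and 3. Oas3, an antiviral RNA sensor, was at 1.54 and 2.2 CPM in control and 34.6, 31.1 and 12.4 CPM in KO1 (log2 fold change 3.8, SE 0.84, adjusted p = 0.0123), and Cmpk2, a nucleotide kinase, at 0.395 and 0.671 CPM in control and 17.7, 3.95 and 5.76 CPM in KO1 (log2 fold change 4.11, SE 0.996, adjusted p = 0.0178). Ifit3, a translation inhibitor of infected cells, was at 0.0659 and 0.183 CPM in control and 10.0, 4.18 and 1.92 CPM in KO1 (log2 fold change 5.45, SE 1.23, adjusted p = 0.0135). The 2 genes called lower were the RNA sensors Ifih1 (-1.41, adjusted p = 0.0128) and Ddx58 (-0.96, adjusted p = 0.0667). Antigen presentation genes rose in 1 of 13 (7.69%) and fell in 1 (7.69%), below the 15.9% and 15.7% of all genes. These were Psmb8, an immunoproteasome subunit (1.01, adjusted p = 0.0548), and Cd274, the checkpoint ligand PD-L1 (-1.16, adjusted p = 0.057).

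Of 25 chemokines and cytokines, 8 rose (32%) and 4 fell (16%), where all genes had 15.9% and 15.7%. The median was 1.20, and the list level was lowest in KO1 replicate 1 (0.24, against 1.14 and 0.89). Beside Il1a, Cxcl3 and Cxcl5, Spp1, osteopontin, rose from 165 and 316 CPM to 725, 1204 and 1266 CPM (log2 fold change 2.15, SE 0.69, adjusted p = 0.0512). The genes that fell were Il11 (3.91 and 2.1 CPM in control and 0.542, 0.332 and 0.406 CPM in KO1, log2 fold change -2.8, adjusted p = 0.0127), Il23a, a subunit of interleukin-23 (198 and 229 CPM in control and 46.6, 44.5 and 63.9 CPM in KO1, log2 fold change -2.05, adjusted p = 0.0105), the growth factor gene Pdgfb (-1.71, adjusted p = 0.0354) and Cxcl16 (-0.74, adjusted p = 0.0426). Without a control library 1 and 2 of the 25 were called higher.

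Matrix genes fell and several matrix proteases rose. Collagens fell in 7 of 17 (41.2%) and rose in 2 (11.8%), with a median of -0.89. Other matrix genes fell in 6 of 21 (28.6%) and rose in 2 (9.52%), with a median of -0.29. All genes had 15.7% lower and 15.9% higher. Col5a1, a collagen that sets fibril size, was at 144 and 74.9 CPM in control and 13.4, 2.52 and 8.25 CPM in KO1 (log2 fold change -3.75, SE 0.63, adjusted p = 0.0041), and Postn, periostin, at 26.8 and 31.2 CPM in control and 3.23, 7.3 and 2.38 CPM in KO1 (log2 fold change -2.76, SE 0.93, adjusted p = 0.0585). Col1a1 (-3.43, adjusted p = 0.0149) and Postn are also fibroblast markers, whose summed levels are given above, and the part of such cells in these falls was not tested. Of the other fibroblast genes, Col3a1, Dcn and Lum had no count in the 5 libraries and Pdgfrb had at most 1. The receptor gene Pdgfra was at 21.8 and 17.7 CPM in control and 28, 39.8 and 21 CPM in KO1. Thbs1, thrombospondin 1, rose from 408 and 424 CPM to 1748, 695 and 1001 CPM (log2 fold change 1.46, SE 0.44, adjusted p = 0.0413). Of 37 proteases, inhibitors and crosslinkers 11 rose (29.7%) and 3 fell (8.11%). Mmp13, a collagenase, was at 0.724 and 0.915 CPM in control and 4.49, 24.7 and 69 CPM in KO1 (log2 fold change 5.32, SE 1.05, adjusted p = 0.008), and Adam8 at 14.7 and 16.1 CPM in control and 58.9, 164 and 157 CPM in KO1 (log2 fold change 3.04, SE 0.46, adjusted p = 0.0028), while Adam9 fell from 306 and 329.9 CPM to 154, 151 and 156 CPM (log2 fold change -1.05, SE 0.14, adjusted p = 0.0015).

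Of 50 integrin and focal adhesion genes, 8 rose (16.0%) and 11 fell (22%), near the 15.9% and 15.7% of all genes. Itga2, a collagen receptor subunit, was at 155 and 133 CPM in control and 14.2, 64.4 and 65.3 CPM in KO1 (log2 fold change -1.59, SE 0.54, adjusted p = 0.0593), and the kindlin genes Fermt1 (-1.58, adjusted p = 0.0021) and Fermt2 (-1.31, adjusted p = 0.012) fell. Actn4, an actin crosslinker, rose from 368 and 371 CPM to 699.7, 753 and 668 CPM (log2 fold change 0.94, adjusted p = 0.0073). Of 65 genes of actin, microvilli and filopodia 16 rose (24.6%) and 10 fell (15.4%), the latter again near the share of all genes. Actb, beta-actin, rose from 1384 and 1263 CPM to 2747, 2876 and 2978 CPM (log2 fold change 1.12, SE 0.19, adjusted p = 0.0047), and Cttn, cortactin, from 271 and 249 CPM to 574, 753 and 752 CPM (log2 fold change 1.42, SE 0.16, adjusted p = 0.00097).

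Some genes of microvilli and filopodia fell by much more. Espn, which bundles the actin of microvilli, was at 59.3 and 41.9 CPM in control and 1.31, 2.26 and 0.785 CPM in KO1 (log2 fold change -5.13, SE 1.12, adjusted p = 0.0116), and Lcp1, plastin 2, at 158 and 155 CPM in control and 0.733, 5.17 and 10.0 CPM in KO1 (log2 fold change -4.9, SE 1.55, adjusted p = 0.048). Baiap2l1, which shapes membrane protrusions, fell from 189.7 and 201 CPM to 26.2, 23.2 and 17.7 CPM (log2 fold change -3.13, SE 0.23, adjusted p = 0.00058). Over the 25 bundling and membrane linker genes, 2 were called higher and 3 lower and the median was 0.28.

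Of 46 genes of epithelial junctions and keratins, 6 rose and 4 fell, shares close to those of all genes or below them. Krt7 was at 767 and 812 CPM in control and 2643, 2813 and 3348 CPM in KO1 (log2 fold change 1.89, SE 0.33, adjusted p = 0.0047) and Krt8 at 452 and 412 CPM in control and 699, 1116 and 1411 CPM in KO1 (log2 fold change 1.32, SE 0.34, adjusted p = 0.0232). Esrp1, an epithelial splicing regulator, fell from 519 and 508 CPM to 187, 211 and 167 CPM (log2 fold change -1.45, SE 0.29, adjusted p = 0.0082). Of 21 genes of epithelial-mesenchymal transition, 4 rose (19.0%) and 1 fell (4.76%), where all genes had 15.9% and 15.7%. The median of these 21 genes was -0.27, and 9 of them lay above 0. Axl, a receptor kinase, rose from 495 and 383 CPM to 1049, 1055 and 1075 CPM (log2 fold change 1.27, SE 0.26, adjusted p = 0.0088) and S100a4 from 1.62 and 2.93 CPM to 8.48, 20.6 and 49.3 CPM (log2 fold change 3.53, SE 0.69, adjusted p = 0.0079), while Bmp1, which trims procollagen, fell from 486 and 552 CPM to 209, 206 and 245 CPM (log2 fold change -1.24, SE 0.31, adjusted p = 0.0202).

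In each of 4 signalling lists more genes fell than rose. Of 42 genes of TGF-beta and BMP signalling 14 fell and 4 rose (median -0.46), of 17 Notch genes 5 fell and 0 rose (median -0.66), of 36 genes of ErbB signalling and AP-1 10 fell and 0 rose (median -0.50), and of 38 Wnt genes 8 fell and 3 rose (median -0.13). Over all genes 15.7% were called lower. In the TGF-beta list, 4 of 9 ligands fell, Inhbb, an activin subunit, with them (-2.41, adjusted p = 0.096), and the activin receptors Acvr2a (-1.52, adjusted p = 0.0021) and Acvr1 (-1.39, adjusted p = 0.0029) fell too. The receptor genes Tgfbr2 and Tgfbr3 rose. Tgfbr2 was at 142 and 121 CPM in control and 353, 306 and 299.5 CPM in KO1 (log2 fold change 1.28, SE 0.27, adjusted p = 0.011), and Tgfbr3, the co-receptor betaglycan, at 0.022 and 0.0915 CPM in control and 10.5, 23.6 and 16.4 CPM in KO1 (log2 fold change 8.23, SE 0.86, adjusted p = 0.00088).

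Among Notch genes, the ligand gene Jag2 was at 50.3 and 46.9 CPM in control and 0.781, 1.13 and 0.622 CPM in KO1 (log2 fold change -5.86, SE 1.03, adjusted p = 0.0049), Jag1 at 120.1 and 77.7 CPM in control and 23.7, 17 and 19.5 CPM in KO1 (log2 fold change -2.3, SE 0.28, adjusted p = 0.0011), and the target gene Hes1 at 53 and 36.6 CPM in control and 19, 19 and 18 CPM in KO1 (log2 fold change -1.26, SE 0.28, adjusted p = 0.0117). In ErbB signalling, Areg, the EGF receptor ligand amphiregulin, fell from 91 and 87.4 CPM to 6.77, 9.55 and 12.4 CPM (log2 fold change -3.22, SE 0.24, adjusted p = 0.00058), Fos, an AP-1 subunit, from 71.1 and 70.4 CPM to 7.55, 10.1 and 9.9 CPM (log2 fold change -2.95, SE 0.86, adjusted p = 0.0354), and Spry4, a feedback inhibitor of ERK, from 30.4 and 26.3 CPM to 3.49, 2.89 and 7.39 CPM (log2 fold change -2.63, adjusted p = 0.022). In the Wnt list, the receptor genes Fzd7 (-2.53, adjusted p = 0.0037) and Fzd3 (-2.08, adjusted p = 0.0021) fell, while Ctnnb1, beta-catenin, rose from 588 and 591 CPM to 1143, 1436 and 1345 CPM (log2 fold change 1.15, SE 0.201, adjusted p = 0.0049) and the ligand gene Wnt10b from 0.549 and 0.244 CPM to 12.3, 10.7 and 10.8 CPM (log2 fold change 4.8, SE 1.2, adjusted p = 0.0201). Of 15 genes of mammary lineages 1 rose (6.67%) and 2 fell (13.3%), below the 15.9% and 15.7% of all genes. The milk protein gene Csn3 fell from 5.25 and 5.46 CPM to 0.159, 1.06 and 0.406 CPM (log2 fold change -3.34, SE 1, adjusted p = 0.0398).

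Of 11 genes that the study itself followed, 6 fell and 0 rose in KO1, where 15.7% of all genes were called lower and 15.9% higher. Because the study chose them with these samples in hand, the count is not independent evidence. Tns1, a tensin gene at 73910231 to 74124449 on chromosome 1, was at 6.8 and 2.17 CPM in control and 1.23, 0.896 and 0.135 CPM in KO1. The groups of Tns1 did not overlap, but it was not called (log2 fold change -2.56, SE 1.19, adjusted p = 0.149). The call depended on the fit. The adjusted p of Tns1 was 0.0682 with DESeq2, 0.0878 without a filter on low counts, 0.0357 with control and KO1 alone and 0.0447 without KO2 replicate 3, each low enough for a call. It was 0.581 without control replicate 1 and 0.208 without control replicate 2. Of the 11 genes, 7 were called lower with DESeq2, 8 with control and KO1 alone, and 2 and 3 without control replicates 1 and 2. Zhx2 (97.5 and 88 CPM in control and 35.6, 38.3 and 26 CPM in KO1, log2 fold change -1.48, SE 0.24, adjusted p = 0.0038), Pvt1, the long noncoding RNA next to Myc (-1.09, adjusted p = 0.0107), Lonp2 (-1.04, adjusted p = 0.0041) and Immp2l (-1.06, adjusted p = 0.0693) fell.

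**Figure D3:**
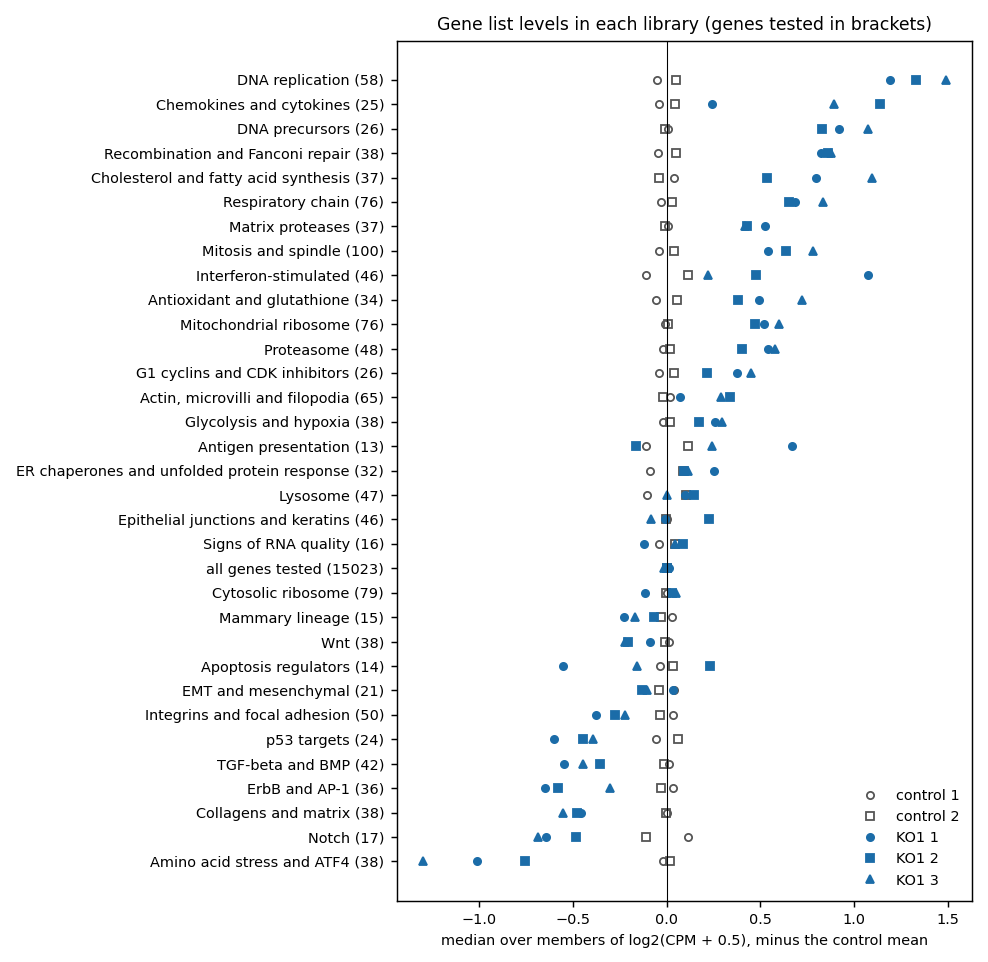
Level of each gene list in each library, as the median over its tested members of log2(CPM + 0.5) relative to the mean of the 2 control libraries. Open gray symbols are control and filled blue symbols KO1. The KO1 libraries lie furthest to the right for DNA replication (1.19, 1.33 and 1.49) and furthest to the left for amino acid stress and ATF4 (-1.01, -0.76 and -1.30), and they spread most for interferon-stimulated genes (1.07, 0.48 and 0.22) and chemokines and cytokines (0.24, 1.14 and 0.89).

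The direction of change differed between chromosomes. The median log2 fold change of the genes tested was -0.46 on chromosome 4, -0.48 on chromosome 12, -0.47 on chromosome 14 and -0.30 on chromosome 8, and it was 0.38 on chromosome 7, 0.45 on the X chromosome, 0.28 on chromosome 18 and 0.25 on chromosome 15. On chromosome 12, 34.0% of the genes were called lower and 4.8% higher, and on the X chromosome 4.24% lower and 31.5% higher, where all genes had 15.7% and 15.9%. For chromosomes 2, 4, 8, 12, 13 and 14 each of the 3 KO1 libraries was below both control libraries. Chromosome 5 did not keep such a level within the clone, with 0.35, 0.11 and -0.04 in KO1 replicates 1, 2 and 3, and on chromosome 3 the 2 control libraries lay at -0.14 and 0.14, so that its median turned from -0.31 without control replicate 1 to 0.01 without control replicate 2.

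In runs of 50 neighbouring genes, 288 in all, the median ranged from -0.91 to 1.33. The lowest run lay on chromosome 2 from 69380445 to 74729160, where 22 of the 50 genes were called lower and 2 higher, with list levels of -0.61, -0.64 and -0.67 in the 3 KO1 libraries. The highest lay on the X chromosome from 6399854 to 13294052, where 34 were called higher and 1 lower, with levels of 1.05, 1.32 and 1.33. Taken relative to the median of each gene's own chromosome, an alternative chosen after the data were seen, the list medians were 1.33 for DNA replication, 0.91 for DNA precursors, 0.66 for mitosis, 0.68 for the respiratory chain, -0.93 for amino acid stress and ATF4 and -0.43 for Notch, so these lists kept the sign of their change. Not all lists held: 14 of 35 list medians moved in this setting, and that of epithelial-mesenchymal transition went from -0.27 to 0.007.

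**Figure D4:**
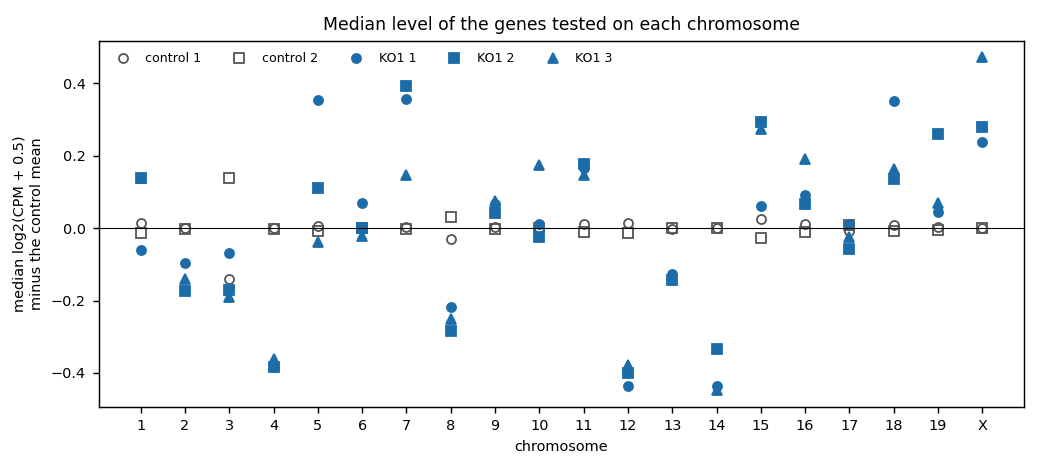
Median over the genes tested on each chromosome of log2(CPM + 0.5) relative to the mean of the 2 control libraries, for control (open gray symbols) and KO1 (filled blue symbols). The 3 KO1 libraries lie furthest below control on chromosomes 4, 12 and 14 and less far below it on chromosomes 2, 8 and 13. They lie above it on several chromosomes, such as chromosome 7 and the X chromosome, and apart from each other on chromosome 5.

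KO1 was also compared with the 4 KO2 libraries, a comparison that holds no control library and asks where the 2 clones differ. Of the 15023 genes, 2944 were called (19.6%). Among genes with at least 1 CPM, 1162 were called both here and against control, and KO1 was higher than every control and KO2 library in 483 of them and lower than every one in 475. Both calls already favour genes whose libraries do not overlap, so these counts do not measure how far KO1 stands apart. The 6 that stood highest were Skor2, Ehf, Kazn, Nos2, Dock11 and Asb2. Kazn, a protein of cell junctions, had 1.72, 7.0 and 9.14 CPM in KO1, 0.0439 and 0 CPM in control and 0.0279, 0, 0 and 0 CPM in KO2, and Asb2, a ubiquitin ligase subunit, had 2.41, 20.2 and 14.7 CPM in KO1, 0.022 and 0.153 CPM in control and 0.0558, 0, 0.158 and 0 CPM in KO2. Skor2 had no count in control or KO2. The 6 that stood lowest were Sulf2, Tbcel, Chn2, Ckb, Tmem121 and Tbc1d9. Sulf2, without a count in KO1, was at 6.61, 32.5, 6.56 and 8.73 CPM in KO2, and Ckb, at most 0.0332 CPM in KO1, was at 9.48, 8.55, 8.68 and 8.81 CPM.

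By list, the clones differed most in interferon genes. Of 46 tested, 37 were called higher in KO1 than in KO2 and 0 lower (median of the log2 difference 2.43), where 19.6% of all genes were called in either direction. Against control, the median of this list was 0.60 in KO1 and -1.63 in KO2, so KO2 lay further from control than KO1 did. Rsad2, the antiviral protein viperin, chosen after its values were seen, was at 30.1, 4.81 and 5.6 CPM in KO1, 0, 0.126, 0.0452 and 0.0613 CPM in KO2 and 1.03 and 1.95 CPM in control (log2 difference from KO2 7.9, adjusted p = 0.0031). Amino acid stress genes were called higher in KO1 than in KO2 in 20 of 38 and lower in 1 (median 0.52), and Trib3, a pseudokinase induced by ATF4 and also chosen after its values were seen, was at 60.9, 139 and 61.2 CPM in KO1, 13.9, 7.92, 14.4 and 8.36 CPM in KO2 and 474 and 553 CPM in control (2.96, adjusted p = 0.0026). Epithelial junction genes and keratins were called higher in KO1 in 15 of 46 and lower in 0 (median 0.61), and genes of epithelial-mesenchymal transition lower in 9 of 21 and higher in 0 (median -0.68). The medians against control were 0.07 in KO1 and -0.56 in KO2 for junctions and keratins. They were -0.27 and 1.08 for epithelial-mesenchymal transition, and -1.01 and -1.60 for amino acid stress. For DNA replication, 12 of 58 were called higher and 2 lower, with a median of 0.19.

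The KO1 libraries differed more among themselves than the 2 control libraries did. Of 9275 genes that averaged 10 CPM or more over the 5 libraries, 42 differed more than 2-fold between the control libraries, 177 between KO1 replicates 1 and 2, 267 between replicates 1 and 3 and 142 between replicates 2 and 3. The widest control gaps were in Dmd, Syt13, Hhip, Ehf and Fam111a. Dmd, the dystrophin gene, was at 1.08 and 0.0305 CPM in control and 16.2, 19.1 and 15.4 CPM in KO1 and was called higher (log2 fold change 4.88, SE 1.04, adjusted p = 0.0105), Fam111a, a protease at replication forks, was at 1.43 and 9.37 CPM in control and 49.6, 66.7 and 64.1 CPM in KO1 (log2 fold change 3.49, SE 0.9, adjusted p = 0.0223), and Syt13 was at 5.0 and 0.519 CPM in control and 21, 13 and 30.5 CPM in KO1 (log2 fold change 2.95, SE 0.97, adjusted p = 0.0547). Hhip, an inhibitor of hedgehog ligands, was at 13.3 and 1.59 CPM in control and 7.31, 5.11 and 24.5 CPM in KO1, and its groups overlapped.

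Within KO1, 8 genes had at most 3 counts in 1 library and at least 5 CPM in another, while 0 genes did so between the 2 control libraries and 72 among the 4 KO2 libraries. A group with more libraries has more pairs in which a gene can differ, so these counts do not compare the groups on equal terms. Ubqln2, a shuttle of ubiquitinated proteins, was at 47.3, 0 and 57 CPM in KO1 and 28.2 and 27.3 CPM in control. Klf8, a zinc finger factor, was at 5.34, 0 and 4.27 CPM in KO1 and 10.7 and 8.51 CPM in control. Both had no count in KO1 replicate 2, and they lie close together on the X chromosome, Klf8 at 153237466 to 153396132 and Ubqln2 at 153498227 to 153501570. Lrrk2, a kinase mutated in Parkinson disease, was at 0, 16.2 and 14.2 CPM in KO1, 27 and 26.7 CPM in control and 39.4, 0.0842, 27.2 and 0 CPM in KO2, and Parvb, a focal adhesion gene of the same chromosome 15, at 0.0159, 16.5 and 19.2 CPM in KO1, 13.3 and 10.8 CPM in control and 37.5, 0, 37.7 and 0 CPM in KO2. KO1 replicate 1 and KO2 replicates 2 and 4 were at or near 0 for both of these genes.

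Stk26, a kinase of cell polarity, and Steap4, a metalloreductase, were read in KO1 replicates 1 and 2 and nearly absent from replicate 3 and from control. Stk26 was at 10.4, 10.3 and 0 CPM in KO1 and Steap4 at 12.6, 12.9 and 0.0541 CPM. Panx1, a channel for ATP release, was at 6.33, 0.0995 and 3.71 CPM and Grb14, an adaptor of insulin signalling, at 0, 4.64 and 5.14 CPM. By the ratio of the highest to the lowest KO1 library, Ubqln2, Lrrk2 and Parvb were followed by Mrgprb2, at 4.22, 1.16 and 0 CPM in KO1 and 29.5 and 31.3 CPM in control, and by Stc2.

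**Figure D5:**
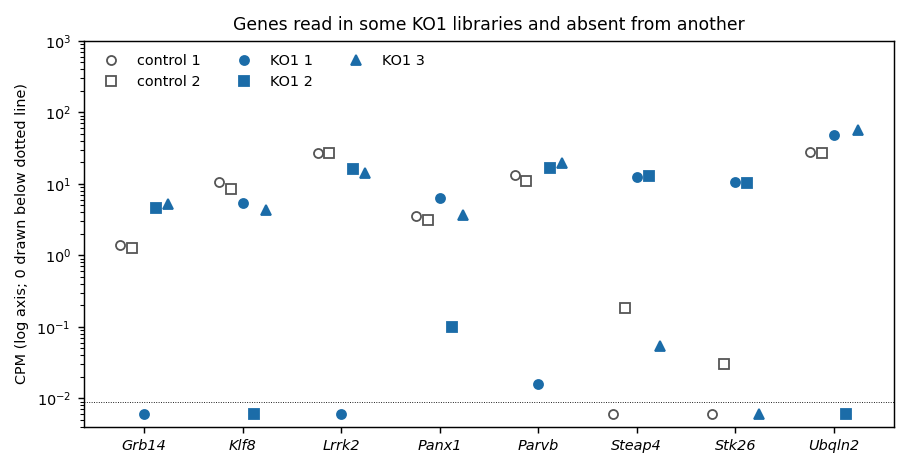
CPM on a log axis for the 8 genes with at most 3 counts in 1 KO1 library and at least 5 CPM in another. Open gray symbols are control, filled blue symbols KO1, and a library without a count is drawn below the dotted line. Klf8 and Ubqln2 have no count in KO1 replicate 2, Grb14 and Lrrk2 none in replicate 1 and Stk26 none in replicate 3, while Panx1 in replicate 2, Parvb in replicate 1 and Steap4 in replicate 3 lie low but above 0.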

How the data were processed

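RNA-seq libraries of 4T1 control cells (2), KO1 (3) and KO2 (4) were analysed. Per the labels and methods, the authors sequenced polyadenylated RNA, used STAR with GRCm38 for mapping and HTSeq with GENCODE genes for counting, and deposited raw counts. Strand use in counting is not stated, so overlapping antisense genes cannot be told apart. One KO2 file lists each gene 3 times and was used once. Reads not assigned to a gene, most of them not mapped uniquely (33.9 to 37.0% of a library), were left out. Counts were fitted with edgeR 4.0.16 (R 4.3.3; quasi-likelihood, TMM, filterByExpr, 3 groups), Benjamini-Hochberg adjusted over 15023 genes, and called at 0.1. The script was tested on simulated data in which 200 genes were changed. Two-sided exact permutation tests used log2(CPM + 1). Alternatives were DESeq2 1.42.0, RLE size factors, other filters and thresholds, the groups alone, a replicate block and leaving out each library.

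Members and gene lists were chosen with earlier results of these data known. Genes were named by rule: MaTAR25, its neighbours and Tns1; the 12 largest rises and 12 largest falls among called, non-overlapping genes of at least 1 CPM, without numbered gene models; the 6 each way of at least 100 CPM; up to 4 called members a list each way; the 6 each way apart from control and KO2; and the 5 widest ratios among control or KO1 libraries of at least 10 CPM. Cell markers were a fixed set, of which a part is shown. The genes present in only some KO1 libraries were given as listed, and further genes are marked in the text. Intervals and bounds cover counting error only.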

Additional observations from a re-analysis of the deposited data

Results flagged for a closer look

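The direct comparison of KO1 with KO2, which tests whether the clones differ from control by unequal amounts, called 2944 genes, and 79 of them are genes named above. Their values are log2 differences of KO1 minus KO2 from the edgeR fit. Where one clone had no or almost no count, as for Skor2, Ehf, Sulf2 or Tbcel, the fitted size depends on the prior count and is no bound. No cause of any of these differences was tested.

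Among the inflammatory genes the report names, the differences were 4.75 for Il1a, 7.54 for Nos2, 7.45 for C3, 4.21 for Casp1, 3.17 for Cxcl5, 1.4 for Cxcl16 and 2.3 for Spp1. Among interferon and antigen presentation genes they were 7.9 for Rsad2, 6.42 for Cmpk2, 4.46 for Oas3, 3.95 for Ifit3, 1.01 for Ddx58, 3.2 for Psmb8 and 1.4 for Cd274. Il11 was lower in KO1 than in KO2, at -2.08.

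Among the stress genes named, values above 0 were found for Trib3 (2.96), Slc7a11 (1.81), Vldlr (5.66), Gadd45a (1.26), Mthfd2 (0.99), Mars (0.31) and Cebpb (1.39), and a value below 0 for Ppp1r15a (-0.84). Among the cell cycle and repair genes the report names, higher values in KO1 were found for Cenpm (1.32), Fanci (1.26), Palb2 (0.85), Mcm6 (0.72) and Birc5 (0.51), while Rb1 (-0.95) and E2f6 (-1.31) were lower. By list, 12 of 58 replication genes were higher and 2 lower, and 13 of 100 mitosis genes higher and 2 lower (median 0.09). Of 26 genes of G1 cyclins and CDK inhibitors, 1 was higher and 5 lower (median -0.14). Over all 15023 genes tested, 1417 were called higher in KO1 than in KO2 and 1527 lower (19.6% called in either direction). Among metabolic and protease genes, Mgst1 (1.88), Ebp (0.81) and Psmd13 (0.43) were higher.

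Matrix, adhesion and signalling genes among those named differed too. Adam8 (3.03), Mmp13 (3.89), Thbs1 (2.08), Krt7 (1.65), Krt8 (0.796), Cttn (0.52), Tgfbr2 (1.09), Tgfbr3 (3.34), Wnt10b (3.92) and Fgfbp1 (3.77) were higher in KO1. Col5a1 (-3.04), Adam9 (-0.66), Bmp1 (-1.4), Itga2 (-1.34), Fermt2 (-0.797), Espn (-2.79), Lcp1 (-5.17), Acvr1 (-0.54), Areg (-2.41), Fos (-4.09), Fzd3 (-1.73), Fzd7 (-2.15), Hes1 (-0.89), Jag2 (-5.03), Hhip (-2.19) and Nkd2 (-4.71) were lower. Of the neighbours of MaTAR25, Ptpn1 was lower (-1.09) and Rnf114 higher (0.58).

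Of the genes with the largest changes, Skor2 (11.75), Ehf (11.22), Kazn (9.25), Asb2 (7.67), Dock11 (7.22), AA414768 (3.27), Steap4 (8.13), Syt13 (7.56) and Dmd (2.08) were higher in KO1 than in KO2. Sulf2 (-12.09), B4galt6 (-11.98), Tbcel (-11.27), Mb21d2 (-9.89), Chn2 (-8.9), Tmem121 (-8.56), Ckb (-8.38), Tbc1d9 (-6.7) and Dapk1 (-5.77) were lower.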

How the results depend on the processing

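The count of 4750 genes called against control rested on both control libraries and on the spread taken from 3 groups. Leaving out 1 library gave 1482 to 5661 genes, 711 to 2816 higher and 771 to 2845 lower, the lowest without control replicate 1 and the highest without KO2 replicate 2, and 1764 without control replicate 2. A fit of control and KO1 alone, whose biological coefficient of variation was 19.8% against 32.5% with KO2, called 7752 genes (3930 higher, 3822 lower). At an adjusted p of 0.01 there were 1219 (631 and 588), and with a log2 fold change of at least 1 there were 2623 (1249 and 1374). DESeq2 (5005), RLE size factors (4745), no filter (4417), at least 10 counts in every library (4156) and an adjusted p of 0.05 (3342) stayed within 1.5 times. For KO1 against KO2, the count went from 2944 to 1932 with these groups alone, to 1643 and 252 at an adjusted p of 0.05 and 0.01, to 1523 with a log2 fold change of at least 1, and to 874 without KO1 replicate 2 up to 4077 without KO2 replicate 3, with 1424 without KO1 replicate 1 and 1704 without KO1 replicate 3.

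Same-numbered libraries did not deviate together (correlations of 0.0028 and 0.026 between control and KO1), so the numbers were not read as pairs. With the replicate block, 3988 genes were called against control and 1736 against KO2. The log2 fold change of MaTAR25 was -3.28 with the replicate block and -5.25 to -2.82 with 1 library left out, and its value of -3.39 was past neither an adjusted p of 0.01 nor, as given above, the threshold without either control or without KO1 replicate 1. Among single genes, the sign turned only where the gene was not called: Hhip (-0.11 without control replicate 2, -0.27 without KO1 replicate 3, 2.97 at most), Krt18 (-0.35 to 0.23, the latter without KO1 replicate 1), Panx1 (-0.16 with the replicate block, -0.03 without control replicate 2, -0.79 without KO1 replicate 1, -0.03 without KO1 replicate 3, 0.60 at most), Parvb (0.15 without control replicate 1, 0.56 without KO1 replicate 1, -0.56 at least), Snai1 (0.071 with the replicate block) and Ubqln2 (-1.90 with the replicate block, -0.22 without KO1 replicate 3, 0.91 at most). Of the named genes called, 55 and 53 lost the call without control replicates 1 and 2. The cause of these changes was not tested. With 2 control libraries, smaller changes may be missed.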
